A study of Mus musculus with 30 samples.

Results

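CC chemokines are small secreted proteins that carry a pair of adjacent cysteines and draw leukocytes toward the cells that release them. The 10 CC chemokine genes described here are Ccl2, Ccl3, Ccl4, Ccl5, Ccl6, Ccl7, Ccl9, Ccl12, Ccl17 and Ccl22. They were found by matching these symbols to the Ensembl mouse gene IDs of the deposited table, which has 32361 rows. All 10 were present, and all 10 passed the filter on low counts that left 15119 genes for testing.

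RNA was sequenced from macrophages grown out of the leg bone marrow of C57BL/6J mice, either wild type (WT) or Ticam2-/- (KO), in medium with L929 cell supernatant as the source of macrophage colony-stimulating factor. Cells of each genotype were left untreated, or received, for either 2 h or 6 h, lipopolysaccharide (LPS) at 10 ng/mL or lipoteichoic acid (LTA) at 100 ng/mL. This made 10 groups of 3 libraries, each library from the cells of 1 animal, with 3 WT and 3 Ticam2-/- animals in all. Ticam2 encodes TRAM, the sorting adaptor that brings the adaptor TRIF to Toll-like receptor 4, the LPS receptor. LTA is read mainly through Toll-like receptor 2. The sources used here do not give which part of Ticam2 the knockout removes. The doses of the 2 ligands differ, so a difference between LPS and LTA is also a difference between doses.

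Macrophages are a main source of CC chemokines in infected tissue. Toll-like receptors raise their transcription through NF-kB and AP-1 downstream of the adaptor MyD88, and, downstream of TRIF, through IRF3 and the type I interferon that follows. Ccl2, Ccl7 and Ccl12 act on Ccr2 and call in monocytes. Ccl3, Ccl4 and Ccl5 call in monocytes, T cells and NK cells, and Ccl3 and Ccl5 act on Ccr1. Ccl6 and Ccl9 are rodent ligands of Ccr1 that resting myeloid cells already make. Ccl17 and Ccl22 share Ccr4, a receptor of type 2 helper and regulatory T cells, and are best known from dendritic cells and from macrophages exposed to interleukin 4.

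Library totals ran from 10641070 to 13521660 counts among the untreated and 6 h samples, and from 1334784 to 2658329 among the 2 h samples. The 2 h libraries are therefore a separate, shallower set, and a change from untreated to 2 h cannot be told apart from a difference between the library sets. Comparisons within 2 h or within 6 h stay inside 1 set. Ticam2 was lower in KO than in WT in all 5 conditions. Among the deeper libraries a KO library held 5 to 26 counts and a WT library 120 to 260, and at 2 h 1 to 14 against 15 to 28. The log2 fold change was -4.01 in untreated cells and, at 6 h, -3.8 with LPS and -4.49 with LTA. At 2 h it was smaller in size, at -1.63 with LPS and -1.81 with LTA. Within KO, Ticam2 was called higher at 2 h than untreated, by 2.53 with LPS and 2.19 with LTA. The cause was not tested. Levels below are CPM (read counts relative to library size) with library sizes scaled by TMM, a method that assumes that most genes do not change. Changes are log2 fold changes ± standard error (n = 3 libraries per group) from edgeR's quasi-likelihood test, called at a Benjamini-Hochberg adjusted p under 0.05 over all genes tested. If libraries were scaled by total counts instead, the median gene moved in the WT responses at 6 h by -0.66 (LPS) and -0.58 (LTA), in the KO responses by -0.19 and -0.18, and in the comparison of KO with WT at 6 h by 0.54 and 0.44, against 0.00 to 0.03 with TMM, so every 6 h change below is relative to the median gene.

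All but a pair of the genes lie on chromosome 11, and that pair on chromosome 8 (GRCm38, GENCODE M21). Ccl2 (chr11:82035571-82037453, plus strand) is followed by Ccl7 (chr11:82045712-82047525) after 8258 bases and by Ccl12 (chr11:82101845-82103400) after a further 54319. Ccl5 (chr11:83525778-83530518), Ccl9 (chr11:83572919-83578636), Ccl6 (chr11:83587882-83593087) and Ccl3 (chr11:83647844-83649355) lie on the minus strand, and Ccl4 (chr11:83662584-83664683) on the plus strand 13228 bases beyond Ccl3. Ccl9 and Ccl6 are 9245 bases apart. Ccl22 (chr8:94745590-94751699) and Ccl17 (chr8:94810453-94812036), both on the plus strand, are 58753 bases apart. RefSeq promoter sequences, 250 bases before to 50 after the start site, were matched for 6 of the 10 genes, Ccl3, Ccl6, Ccl9, Ccl12, Ccl17 and Ccl22. Those of 4 genes are shown, on the RefSeq build GRCm38.p6 and 5′ to 3′ along the gene's own strand. Ccl9 and Ccl6 are neighbours of which one rose several-fold and the other hardly moved, in WT cells at 6 h Ccl12 was the gene of the 10 most favoured by LPS over LTA, and Ccl17 the one most favoured by LTA. Capitals mark matches to the motifs searched on both strands, which were the NF-kB consensus, the interferon-stimulated response element (a pair of GAAA runs with any 2 bases between), AP-1 (TGACTCA or TGAGTCA) and STAT6 (TTC and GAA with any 4 bases between).
Ccl9, chr11:83578587-83578886, minus strand: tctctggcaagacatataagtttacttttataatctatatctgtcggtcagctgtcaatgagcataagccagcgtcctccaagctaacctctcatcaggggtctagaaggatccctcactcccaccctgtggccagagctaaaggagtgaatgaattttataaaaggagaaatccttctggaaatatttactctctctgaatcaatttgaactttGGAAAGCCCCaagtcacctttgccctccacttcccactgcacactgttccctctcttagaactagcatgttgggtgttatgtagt
Ccl6, chr11:83593038-83593337, minus strand: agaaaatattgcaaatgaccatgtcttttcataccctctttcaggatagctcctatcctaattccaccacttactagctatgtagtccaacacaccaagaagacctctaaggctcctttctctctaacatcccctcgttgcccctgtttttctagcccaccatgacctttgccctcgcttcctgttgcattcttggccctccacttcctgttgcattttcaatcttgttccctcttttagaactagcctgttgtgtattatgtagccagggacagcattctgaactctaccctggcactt
Ccl12, chr11:82101595-82101894, plus strand: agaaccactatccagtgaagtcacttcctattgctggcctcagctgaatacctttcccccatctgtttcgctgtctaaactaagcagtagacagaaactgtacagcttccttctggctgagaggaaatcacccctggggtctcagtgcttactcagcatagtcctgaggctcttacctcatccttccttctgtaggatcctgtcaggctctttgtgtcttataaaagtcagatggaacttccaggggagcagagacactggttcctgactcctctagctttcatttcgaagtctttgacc
Ccl17, chr8:94810203-94810502, plus strand: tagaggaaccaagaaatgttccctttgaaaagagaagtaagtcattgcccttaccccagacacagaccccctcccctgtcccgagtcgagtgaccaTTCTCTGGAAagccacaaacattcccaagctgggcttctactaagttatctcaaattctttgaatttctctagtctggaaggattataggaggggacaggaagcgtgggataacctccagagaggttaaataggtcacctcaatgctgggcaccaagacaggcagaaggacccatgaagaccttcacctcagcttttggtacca

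In these windows Ccl9 held 1 NF-kB match, read on the opposite strand as GGGGCTTTCC, whose first base in the printed strand is at position -35 from the start site. Ccl17 held 1 STAT6 match (TTCTCTGGAA) at -154. Of all 32841 promoters of 300 bases, 8.46% held the NF-kB motif, 3.44% the interferon-stimulated element, 5.20% AP-1 and 6.95% STAT6. The other 4 matched promoters held none of the 4 motifs. A match describes these letters only and no binding was measured.

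The 10 genes together took a larger part of the RNA of WT macrophages than of KO macrophages at 6 h, but not at 2 h. In untreated cells they held 0.269 to 0.275% of a WT library's counts and 0.230 to 0.234% of a KO library's. At 6 h this share was 3.47 to 3.78% with LPS and 3.03 to 3.09% with LTA in WT, and 1.12 to 1.21% and 1.07 to 1.10% in KO. At 2 h it was 0.895 to 0.938% with LPS and 0.589 to 0.641% with LTA in WT, and 0.991 to 1.06% and 0.915 to 0.924% in KO. WT and KO libraries did not overlap in any of the 5 conditions, and KO lay above WT at 2 h and below it in the other 3. The shares are of deposited counts and use no scaling. In bulk RNA, fewer cells making a transcript and less transcript per cell cannot be told apart.

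**Figure D1:**
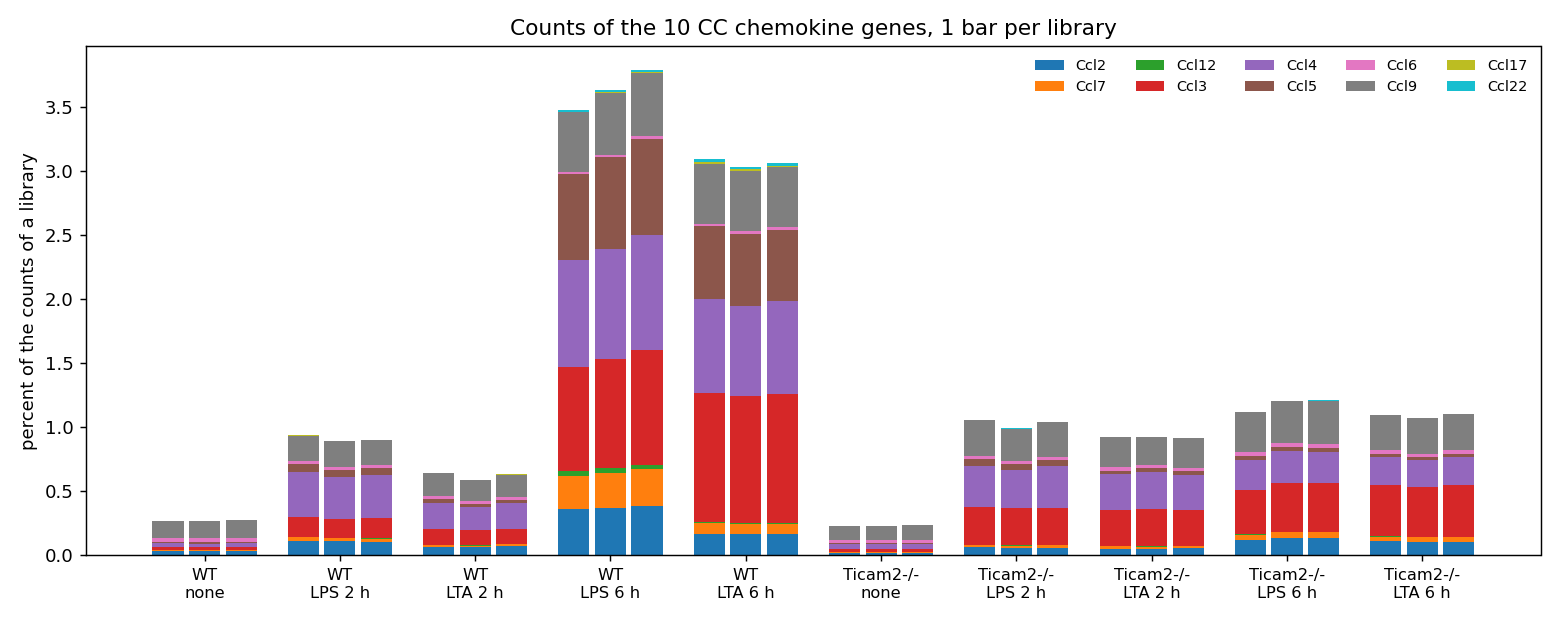
Percent of each library's counts (vertical axis) held by the 10 CC chemokine genes, stacked by gene, with 1 bar per library grouped by genotype and treatment. The WT 6 h libraries reach 3.03 to 3.78%, while the KO 6 h libraries stay between 1.07 and 1.21%, and at 2 h the KO bars are the taller ones.

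Per kilobase of annotated exon, the only scale on which different genes are compared here, untreated WT macrophages made most Ccl4 (418.3 ± 8.11 CPM per kb, mean ± SD, n = 3) and Ccl9 (399.5 ± 5.98). Ccl2 (250.5 ± 7.98) and Ccl3 (240.6 ± 6.25) followed, then Ccl6 (136.3 ± 2.1), Ccl5 (112.1 ± 0.918) and Ccl7 (90.98 ± 4.98). Ccl12 stood at 26.44 ± 1.76, and Ccl22 (1.222 ± 0.396) and Ccl17 (1.087 ± 0.268) were lowest. Ccl17, at 5 to 9 counts per library, was close to the lower limit of detection, and Ccl22, at 26 to 48, was above it. With LPS for 6 h the order in WT began with Ccl4 (18810 ± 884), Ccl3 (15950 ± 920) and Ccl5 (10620 ± 753), followed by Ccl7 (4841 ± 300) and Ccl2 (4730 ± 198), which overlapped within their spread. In KO cells with LPS for 6 h, Ccl3 (4844 ± 382) and Ccl4 (3643 ± 208) led, and Ccl5 was at 332.4 ± 18.1. The sources used here do not give the library kit or the part of the transcript that its reads cover, so per-kilobase levels assume even coverage.

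In WT macrophages all 10 genes were called higher with LPS for 6 h and all 10 with LTA for 6 h, where 72.7% and 71.3% of all genes tested were called in either direction, 36.6% and 35.4% higher and 36.1% and 35.9% lower. The median change of the 10 was 5.61 with LPS and 4.51 with LTA, beside 0.03 and 0.01 for all genes. In KO macrophages the same comparisons also called 10 of 10 higher with each ligand (52.3% and 52.2% of all genes called either way, 25.7% higher with each, and 26.6% and 26.5% lower), with medians of 2.92 and 2.64. At 2 h in WT, LPS called 9 higher and 1 lower (45.0% of all genes called, 19.5% higher and 25.5% lower), and LTA 7 higher and 2 lower (43.0%, 19.0% and 23.9%). At 2 h in KO, LPS called 9 higher and 0 lower (57.2% of all genes called, 26.8% higher and 30.4% lower), and LTA 10 higher (56.0%, 26.3% and 29.7%). For Ccl17 this LTA call in KO (2.33, adjusted p = 0.00048) rests on 2 to 5 counts per 2 h library, against 4 to 5 per deeper untreated library. It lies near the limit of detection and crosses the library sets. The call of Ccl6 with LTA for 2 h in KO (0.13 ± 0.05) was lost without KO LTA replicate 3 (0.07, adjusted p = 0.29) or KO untreated replicate 1 (0.11, 0.066) or 2 (0.12, 0.052), and that with LTA for 6 h in WT (0.09 ± 0.04) without WT untreated replicate 1 (0.08, 0.12) or 3 (0.10, 0.062). The call of Ccl12 with LTA for 2 h in KO (0.70 ± 0.19) was lost without KO LTA replicate 1 (0.55, 0.06). Ccl6 also depended on the scaling: its 6 h rises in WT turned into falls of -0.40 (LPS) and -0.51 (LTA) on total counts. Its KO rise with LTA lost its call on that scale at 6 h (0.22 to 0.04, adjusted p = 0.36) and at 2 h (0.13 to 0.04, 0.41), and its KO rise with LPS for 6 h went from 0.35 to 0.16 (0.00024).

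**Figure D2:**
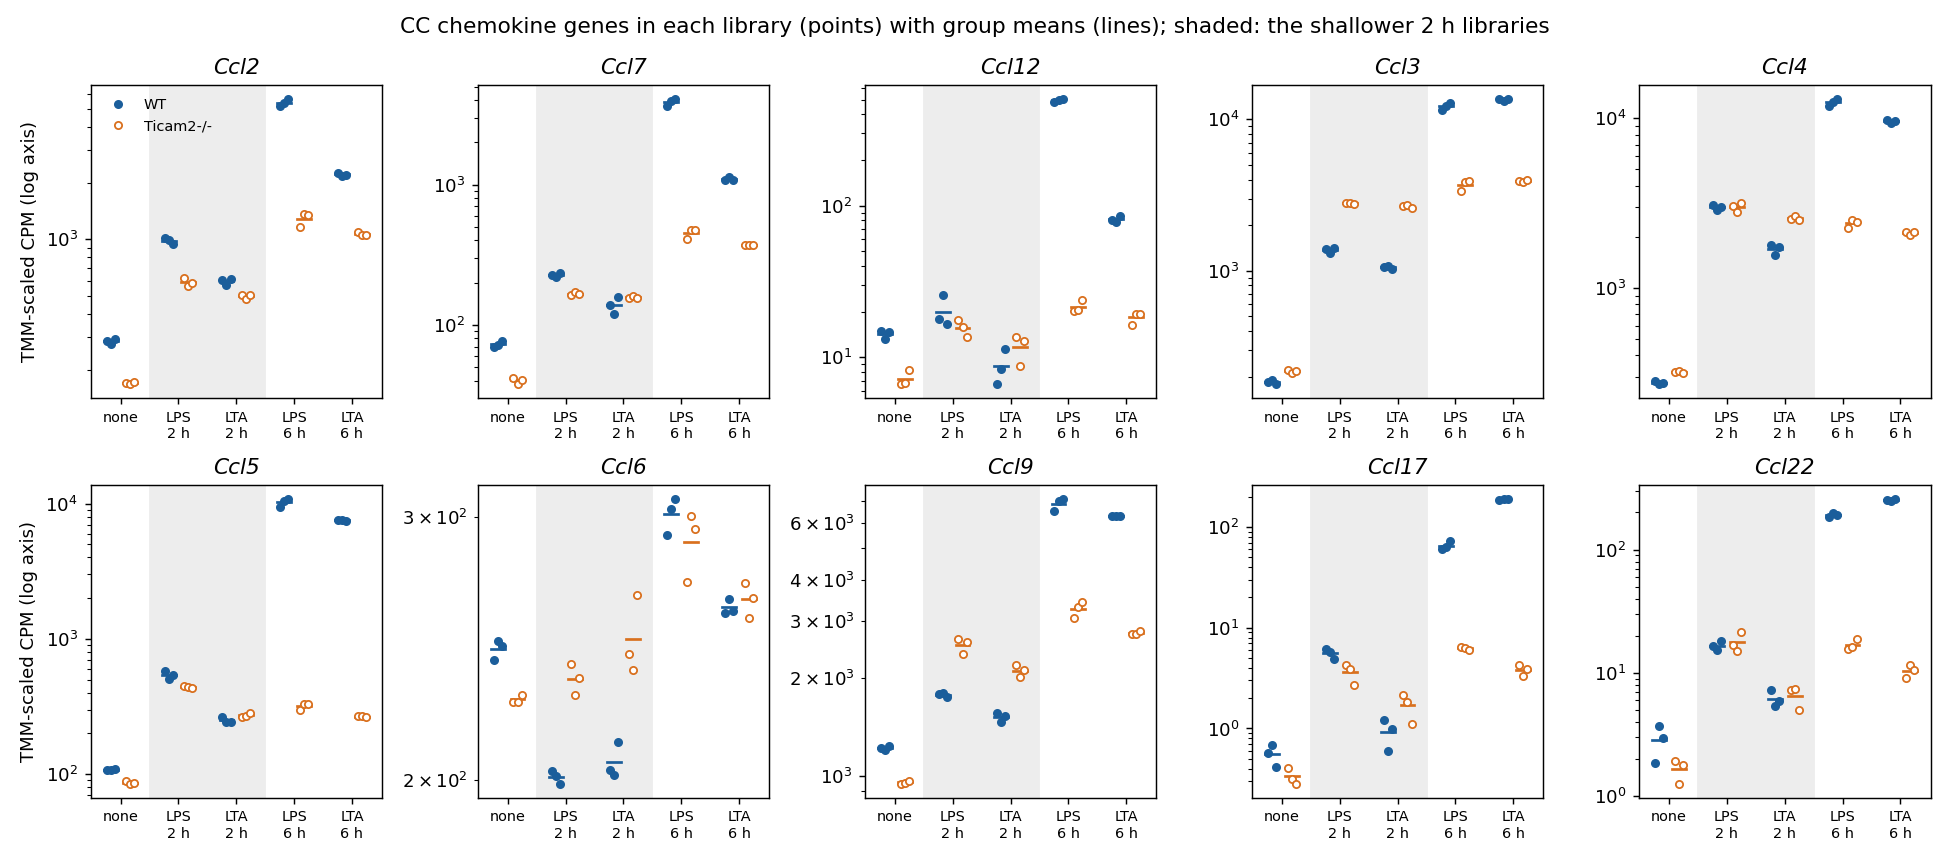
Level of each gene in each library as TMM-scaled CPM (log axis, 1 panel per gene), by treatment and time; filled points are WT, open points Ticam2-/-, lines the group means, and the shaded band marks the 2 h library set. In 9 of 10 panels the KO points at 6 h lie below the WT points, and in the Ccl6 panel they overlap with them. Over all genes tested, 30.6% were called lower in KO with LPS for 6 h and 28.0% with LTA. The share of all genes without overlap was not counted.

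Ccl2, Ccl7 and Ccl12, the Ccr2 ligands of the first cluster, rose with both ligands at 6 h and were lower in KO than in WT both at rest and at 6 h. Ccl2 (also called MCP1) stood at 285.7, 275.6 and 293.7 CPM in untreated WT libraries and at 170.8, 168.9 and 172.4 in untreated KO libraries. With LPS for 6 h it reached 5159, 5380 and 5610 CPM in WT libraries and 1159, 1365 and 1345 in KO libraries. With LTA for 6 h the values were 2272, 2187 and 2216 in WT libraries and 1091, 1050 and 1056 in KO libraries. No WT group overlapped with its KO counterpart. The KO-to-WT change was -0.74 ± 0.05 at rest (adjusted p = 9.9e-19), and at 6 h -2.06 ± 0.04 with LPS (6.9e-42) and -1.06 ± 0.04 with LTA (1.7e-28). At 2 h WT libraries held 1022, 988.4 and 943.1 CPM with LPS and 608.2, 572.8 and 615.5 with LTA, and KO libraries 624.3, 560.6 and 584.2 with LPS and 502.6, 480.7 and 504.1 with LTA. KO was then lower with each ligand, by -0.74 ± 0.05 (6e-18) and -0.27 ± 0.05 (7.5e-05). The 10 groups kept a clear order for Ccl2, and only WT with LTA and KO with LPS at 2 h overlapped among neighbours in it.

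Ccl7 (MCP3) followed the same order of groups at 6 h with wider steps. Untreated WT libraries held 69.36, 72.04 and 77.21 CPM and untreated KO libraries 41.62, 38.01 and 40.77. LPS for 6 h gave 3606, 3964 and 4063 CPM in WT libraries and 407, 476.3 and 474.1 in KO libraries, and LTA gave 1084, 1124 and 1071 in WT libraries and 371.5, 368.2 and 372 in KO libraries. WT with LPS thus stood apart from all other groups. The WT rise was 5.73 ± 0.06 with LPS and 3.91 ± 0.06 with LTA, and the KO rise 3.49 ± 0.06 and 3.21 ± 0.06. The KO-to-WT change was -0.86 ± 0.06 at rest, -3.10 ± 0.05 with LPS and -1.56 ± 0.05 with LTA at 6 h (edgeR adjusted p from 1.4e-16 to 7.5e-48). At 2 h LPS gave 226.2, 220.2 and 234.7 CPM in WT and 163.5, 170.5 and 165.6 in the KO libraries (-0.45 ± 0.07, 2.4e-06). LTA for 2 h gave 138.2, 118.7 and 157.1 CPM in WT and 154.8, 159.6 and 156.1 in the KO libraries, which overlapped (0.18 ± 0.08, 0.15), and this change was called without WT LTA replicate 3 (0.29, 0.02).

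Ccl12 (MCP5) was the least abundant of the 3 per kilobase, and stood far higher in WT with LPS for 6 h than in any other group. Its untreated levels were 14.77, 13.11 and 14.71 CPM in WT libraries and 6.694, 6.731 and 8.168 in KO libraries. At 6 h LPS gave 483.7, 496.2 and 504.6 CPM in WT libraries and 20.25, 20.55 and 23.86 in KO libraries, and LTA 80.31, 77.76 and 85.27 in WT libraries and 16.42, 19.29 and 19.19 in KO libraries. All WT libraries at 6 h therefore lay above all KO libraries, and the KO libraries with LPS lay just above those with LTA, at a change of 0.24 ± 0.08 that was not called (adjusted p = 0.12). KO against WT was 22.9-fold lower with LPS (-4.52 ± 0.06, 1.2e-51) and 4.43-fold lower with LTA (-2.15 ± 0.07, 1.2e-32). At 2 h a library held only 11 to 45 Ccl12 counts, and the calls in WT against untreated, 0.46 ± 0.15 with LPS and -0.67 ± 0.20 with LTA, were each lost without 1 library (LPS replicate 2: 0.25, adjusted p = 0.29; LTA replicate 1: -0.52, 0.066). Without any 1 library, the KO rise with LPS for 2 h (1.10 ± 0.18, 5.6e-07), the WT difference between LPS and LTA (1.12 ± 0.23, 0.0013) and the KO minus WT response to LTA (1.36 ± 0.28, 0.00016) were still called.

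Ccl3, Ccl4 and Ccl5 reached the highest levels of the 10 per kilobase in WT cells at 6 h with each ligand, and differed in how KO cells behaved at 2 h. Ccl3 (MIP-1 alpha) stood at 184.7, 188.9 and 179.4 CPM in untreated WT and 220.7, 211.8 and 218.3 in untreated KO libraries. At 2 h KO was above WT: LPS gave 1389, 1307 and 1415 CPM in WT libraries and 2787, 2798 and 2772 in KO libraries, and LTA 1064, 1068 and 1035 in WT libraries and 2669, 2708 and 2591 in KO libraries. At 6 h KO was below WT: LPS gave 11470, 12310 and 12870 in WT libraries and 3375, 3843 and 3914 in KO libraries, and LTA 13530, 13220 and 13590 in WT libraries and 3946, 3859 and 3984 in KO libraries. The groups did not overlap at any of these points. KO against WT was 0.24 ± 0.04 at rest (adjusted p = 6.7e-05), at 2 h 1.02 ± 0.04 with LPS and 1.33 ± 0.04 with LTA (3.4e-26 and 1.1e-30), and -1.72 ± 0.04 and -1.77 ± 0.04 at 6 h (2e-39 and 9.5e-40).

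Ccl4 (MIP-1 beta), the neighbour of Ccl3, shared its fall in KO at 6 h but not all of its rise at 2 h. Untreated libraries held 282.1, 272.1 and 273.9 CPM in WT libraries and 317.6, 322.7 and 315.2 in KO libraries, a change of 0.21 ± 0.04 (adjusted p = 0.00055). With LPS for 2 h WT (3102, 2876 and 3018 CPM) and KO (3031, 2820 and 3148) overlapped, and the change was 0.00 with a 95% interval of -0.09 to 0.09. With LTA for 2 h KO (2553, 2639 and 2521 CPM) lay above WT (1797, 1569 and 1733), by 0.60 ± 0.04 (5.4e-16). At 6 h LPS gave 11810, 12480 and 12970 CPM in WT libraries and 2252, 2516 and 2446 in KO libraries (-2.37 ± 0.04, 7.4e-45), and LTA 9736, 9408 and 9704 in WT libraries and 2143, 2064 and 2140 in KO libraries (-2.18 ± 0.04, 5.7e-43). WT Ccl4 was thus higher at 6 h than at 2 h with each ligand, while in KO the 6 h levels were below the 2 h levels; these comparisons between times cross the library sets and were not tested.

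Ccl5 (RANTES), widely used as a readout of TRIF and interferon signalling, was the gene with the largest KO-to-WT change with LPS for 6 h among the 10. Untreated libraries held 107.3, 106.8 and 108.5 CPM in WT libraries and 88.48, 85.21 and 86.01 in KO libraries. LPS for 6 h gave 9399, 10360 and 10820 CPM in WT libraries and 299, 329.5 and 328.9 in KO libraries, and LTA 7598, 7528 and 7445 in WT libraries and 267.3, 267 and 262.8 in KO libraries. All KO libraries at 6 h lay below all WT libraries of the same treatment. KO was 31.9-fold lower with LPS (-5.00 ± 0.05, adjusted p = 3.8e-58) and 28.3-fold lower with LTA (-4.82 ± 0.05, 4e-57), which ranked 67th and 27th among the falls of all 15119 genes. At 2 h the genotypes were close: LPS gave 577.3, 502.4 and 536.8 CPM in WT libraries and 450.2, 440.4 and 432.6 in KO libraries (-0.29 ± 0.05, 1.2e-05), and LTA 262.5, 244.6 and 243 in WT libraries and 263.2, 270.7 and 281 in KO libraries (0.12 ± 0.06, 0.20). In KO the rise over untreated was 1.88 ± 0.05 with LPS and 1.62 ± 0.05 with LTA at 6 h, against 6.57 ± 0.05 and 6.13 ± 0.05 in WT.

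Ccl9 and Ccl6, neighbouring Ccr1 ligands, behaved differently: Ccl9 rose with both ligands and was lower in KO at 6 h, and Ccl6 moved little in any group. Ccl9 (MIP-1 gamma) was abundant at rest, with 1215, 1199 and 1236 CPM in WT libraries and 948, 952.3 and 966.3 in KO libraries. LPS for 6 h gave 6496, 6978 and 7096 CPM in WT libraries and 3049, 3307 and 3419 in KO libraries, and LTA 6283, 6305 and 6289 in WT libraries and 2734, 2738 and 2785 in KO libraries. At 2 h the order was turned, with 1780, 1799 and 1747 CPM in WT libraries and 2640, 2362 and 2576 in KO libraries with LPS, and 1558, 1461 and 1528 in WT libraries and 2189, 2009 and 2118 in KO libraries with LTA. WT and KO did not overlap in any condition. KO against WT was -0.35 ± 0.04 at rest, 0.51 ± 0.04 and 0.47 ± 0.04 at 2 h with LPS and LTA, and -1.07 ± 0.04 and -1.19 ± 0.04 at 6 h (edgeR adjusted p from 3.6e-13 to 2.3e-32 for treated cells, and 1.4e-09 at rest).

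Ccl6 (C10) stayed between 199 and 308.3 CPM in all 30 libraries. In untreated cells it was at 240.5, 247.7 and 245.9 CPM in WT libraries and 225.7, 225.7 and 228 in KO libraries. LPS for 6 h gave 291.5, 303.6 and 308.3 in WT libraries and 271.4, 300.1 and 294.3 in KO libraries, which overlapped. LTA for 6 h gave 258.8, 264.5 and 259.5 in WT libraries and 271, 256.7 and 264.8 in KO libraries, which also overlapped. The KO-to-WT change at 6 h was -0.06 with LPS (95% interval -0.14 to 0.02) and 0.02 with LTA (-0.07 to 0.10), and neither was called (adjusted p = 0.17 and 0.73). On total counts both were called higher in KO, at 0.46 with LPS (4.3e-16) and 0.45 with LTA (1.5e-15). With LPS, DESeq2 and RLE scaling called Ccl6 lower in KO (-0.14 each), and so did leaving out WT LPS replicate 1 (-0.13) or 2 (-0.11). At 2 h it was at 202.9, 201.4 and 199 CPM with LPS and 203.1, 201.7 and 212 with LTA in WT, and at 239.3, 228.1 and 234.1 with LPS and 242.8, 236.9 and 266 with LTA in KO. Ccl6 at 2 h was therefore lower than untreated in WT (-0.28 ± 0.05 with LPS, -0.25 ± 0.05 with LTA) and not lower in KO (0.04 ± 0.05, not called, and 0.13 ± 0.05), so that KO lay above WT by 0.21 ± 0.06 with LPS (0.0041; 0.13 and not called on total counts) and 0.27 ± 0.06 with LTA (0.00031). Of the 30 deposited values, 21 for Ccl9 and 11 for Ccl6 were not whole, and rounding moved them by at most 0.5 of a count.

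Ccl17 (TARC) and Ccl22 (MDC), the Ccr4 ligands of chromosome 8, went from low levels to clear expression in WT cells. Untreated Ccl17 was near the limit of detection. In WT both reached higher levels with LTA than with LPS at 6 h. Untreated Ccl17 was at 0.5709, 0.6898 and 0.4156 CPM in WT (8, 9 and 5 counts) and 0.4033, 0.3168 and 0.2841 in KO (5, 4 and 4 counts). At 6 h LPS gave 60.31, 63.74 and 72.38 CPM in WT libraries and 6.422, 6.293 and 6.078 in KO libraries, and LTA 184.1, 190 and 189.8 in WT libraries and 4.304, 3.304 and 3.873 in KO libraries. WT with LTA was the highest group and did not overlap with WT with LPS, and both lay above all KO libraries. The WT rise was 6.82 ± 0.12 with LPS and 8.34 ± 0.10 with LTA, and the latter ranked 16th among the rises of all genes. Leaving out 1 library moved these rises to 6.66 to 6.98 and 8.19 to 8.51. With 5 to 9 counts per untreated WT library, the standard errors can be too small. KO was 10.4-fold lower with LPS (-3.39 ± 0.08, adjusted p = 4.4e-40) and 48.9-fold lower with LTA (-5.61 ± 0.08, 1.3e-50), the latter ranking 9th among the falls. At 2 h a library held 1 to 13 Ccl17 counts, and no difference between the genotypes was detectable at that depth (adjusted p = 0.36 with LPS and 0.54 with LTA).

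Ccl22 also stood highest in WT with LTA, then in WT with LPS, KO with LPS and KO with LTA at 6 h. Untreated WT libraries held 1.855, 3.679 and 2.992 CPM and untreated KO libraries 1.936, 1.267 and 1.776. At 6 h LPS gave 182.5, 199.1 and 192 CPM in WT libraries and 15.56, 16.09 and 18.68 in KO libraries, and LTA 251.6, 245.9 and 257.6 in WT libraries and 9.134, 11.52 and 10.54 in KO libraries. The 4 groups at 6 h did not overlap. KO was 11.4-fold lower with LPS (-3.51 ± 0.07, adjusted p = 2.5e-44) and 24.2-fold lower with LTA (-4.60 ± 0.07, 7.7e-48). At 2 h LPS gave 16.6, 15.36 and 17.99 CPM in WT and 16.99, 15.02 and 21.58 in the KO libraries, and LTA 7.276, 5.37 and 5.89 in WT and 7.228, 7.403 and 5.019 in the KO libraries. The genotypes thus overlapped with both ligands, at changes of 0.06 (95% interval -0.36 to 0.47) and 0.11 (-0.57 to 0.80) from 9 to 48 counts per library. The untreated KO-to-WT change of -0.75 ± 0.22 was called (0.012) although the groups overlapped, and was lost without WT replicate 2 (-0.51, 0.22) or KO replicate 2 (-0.60, 0.10).

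**Figure D3:**
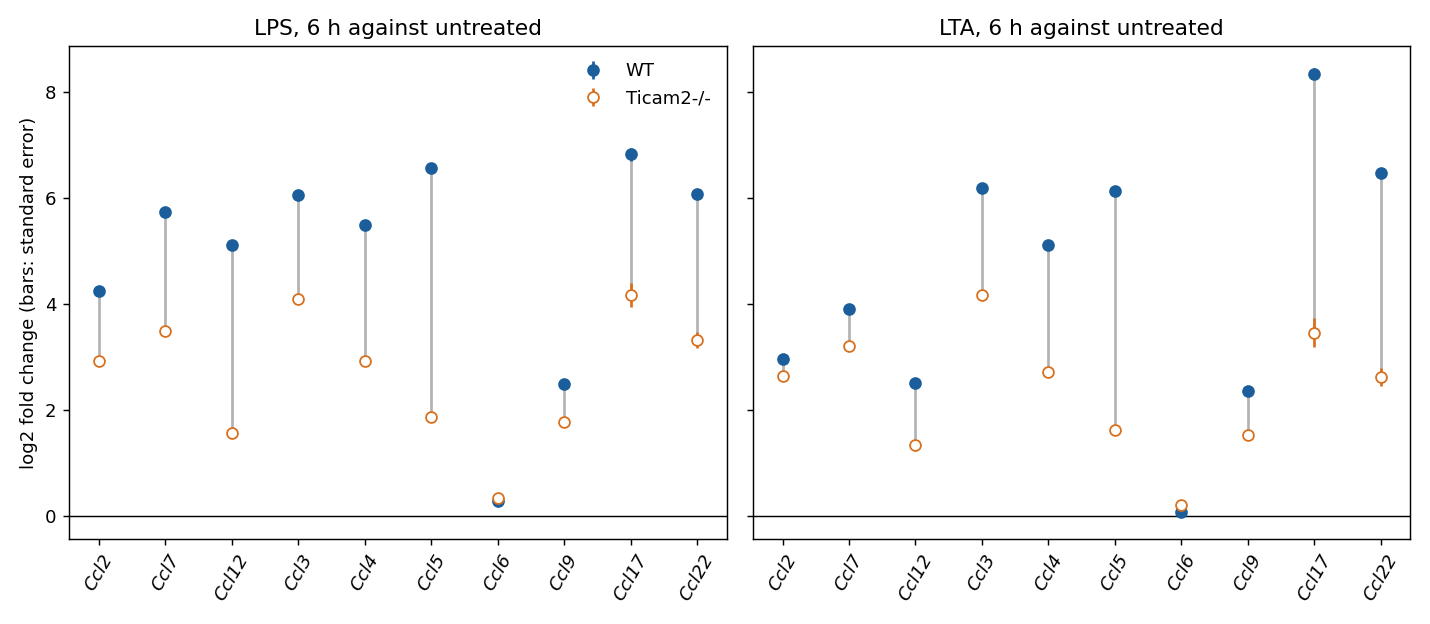
Log2 fold change against untreated cells after 6 h of LPS (left) or LTA (right), in WT (filled) and Ticam2-/- (open), with standard errors from the fit of 3 libraries per group; grey lines join the genotypes. The KO point is lower for 9 of 10 genes with each ligand, with the widest gaps at Ccl5 for LPS (6.57 against 1.88) and at Ccl17 for LTA (8.34 against 3.46); Ccl6 lies near 0 in both, and is below 0 in WT on total counts.

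Across the 10 genes the KO-to-WT differences depended on time. In untreated cells 2 genes were higher in KO (Ccl3 and Ccl4) and 6 lower (13.4% of all genes tested were called, 5.97% higher and 7.47% lower). With LPS for 2 h, 3 were higher and 3 lower (16.4% of all genes, 9.11% higher and 7.24% lower), and with LTA for 2 h, 4 were higher and 1 lower (13.0%, 7.83% and 5.21%). With LPS for 6 h, 0 were higher and 9 lower, where 63.3% of all genes were called, 32.7% higher and 30.6% lower, and the median was -2.73 over the 10 and 0.01 over all genes. With LTA for 6 h, 0 were higher and 9 lower, where 58.5% of all genes were called, 30.5% higher and 28.0% lower, and the median was -1.96 over the 10 and 0.01 over all genes. The gene not called at 6 h was Ccl6 in both cases.

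The difference between the times was tested by 2 contrasts chosen after the data were seen, each the KO-to-WT change at 6 h minus that at 2 h, in which differences between the library sets shared by both genotypes cancel. All 10 genes were called lower with LPS (45.5% of all genes called, 22.0% higher and 23.5% lower) and all 10 with LTA (40.6%, 20.1% and 20.5%). The largest changes in size were -4.71 ± 0.07 for Ccl5 and -4.18 ± 0.23 for Ccl12 with LPS, and -6.50 ± 0.71 for Ccl17 and -4.94 ± 0.07 for Ccl5 with LTA, where the value of Ccl17 rests on 1 to 5 counts in each 2 h library. Ccl3 moved by -2.74 ± 0.06 and -3.11 ± 0.06, from higher in KO at 2 h to lower at 6 h. The smallest were those of Ccl6, -0.28 ± 0.07 and -0.25 ± 0.07, which turned to 0.34 and 0.26 on total counts. Ticam2 itself was also called lower in these contrasts, by -2.17 with LPS and -2.68 with LTA, its KO-to-WT gap being smaller at 2 h.

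**Figure D4:**
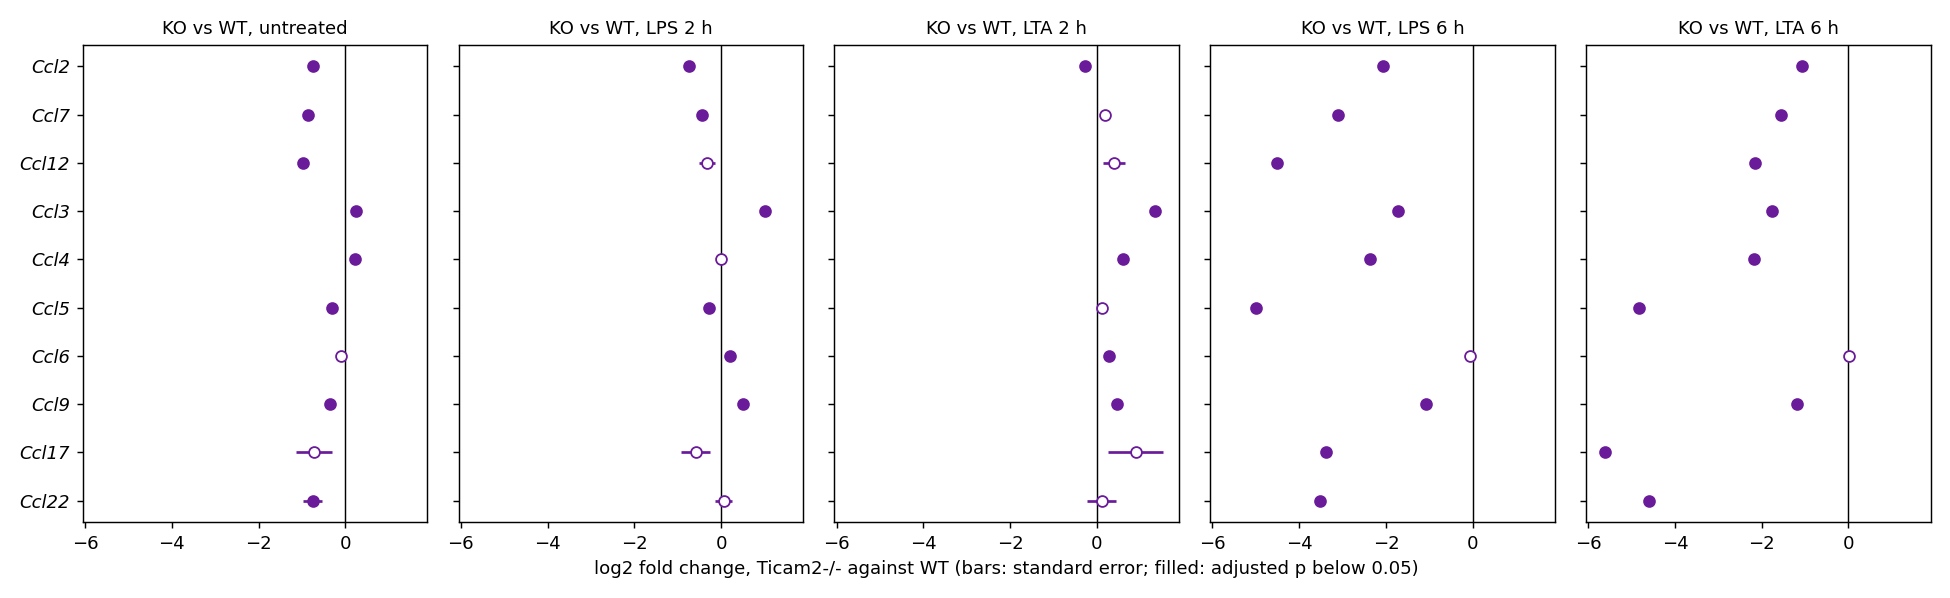
Log2 fold change of Ticam2-/- (KO) against WT for each gene in the 5 conditions, with standard errors; filled points have an adjusted p under 0.05. Points scatter on both sides of 0 in the 2 h panels, where Ccl3 is highest (1.02 and 1.33), and lie left of 0 at 6 h for every gene but Ccl6, whose sign at 6 h with LPS depends on the scaling.

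The response itself, 6 h against untreated, differed between genotypes for 9 of the 10 genes with each ligand, all with a smaller rise in KO, where 50.5% (LPS) and 44.9% (LTA) of all genes were called, 27.0% and 24.8% higher and 23.5% and 20.1% lower. Ccl5 lost most with LPS (-4.68 ± 0.07) and Ccl17 with LTA (-4.88 ± 0.56). For Ccl2 with LTA the loss was small (-0.32 ± 0.06, adjusted p = 2.6e-05) and turned to 0.09 (0.16) on total counts. Ccl2 was also lower in KO at rest. Ccl6 did not differ by test, with 95% intervals of -0.07 to 0.17 for LPS and 0.01 to 0.25 for LTA (adjusted p = 0.48 and 0.056), though both were called on total counts (0.55 each). At 2 h the KO response minus the WT response was above 0 for 6 genes and below 0 for 1 with LPS (17.9% of all genes called, 10.0% higher and 7.90% lower), and above 0 for 8 with LTA (15.4%, 9.02% and 6.33%). For Ccl6 this was no larger rise, since it fell in WT with LPS (-0.28 ± 0.05) and with LTA (-0.25 ± 0.05), against 0.04 ± 0.05 (not called) and 0.13 ± 0.05 in KO. Ccl12 with LTA also had opposite signs, at -0.67 ± 0.20 in WT and 0.70 ± 0.19 in KO. With LPS for 2 h the rises of Ccl2 (difference 0.00, 95% interval -0.15 to 0.14) and Ccl5 (0.02, -0.12 to 0.17) in KO were within these intervals of those in WT, while that of Ccl9 was larger by 0.86 ± 0.06. Of the 6 values above 0 with LPS for 2 h, those of Ccl12 (0.64 ± 0.22, adjusted p = 0.037) and Ccl22 (0.81 ± 0.30, 0.047) were lost without any 1 of 8 and 9 of the 12 libraries, with ranges of 0.48 to 0.83 and 0.56 to 1.05. The smaller rise of Ccl4 (-0.21 ± 0.06, 0.014) was lost without KO LPS replicate 2 (-0.17, 0.057).

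LPS against LTA separated the chromosome 11 cluster of Ccr2 ligands from the Ccr4 ligands in WT cells at 6 h. In WT at 6 h, 7 genes were higher with LPS and 3 with LTA (31.8% of all genes called, 17.9% and 14.0%). Ccl12 (2.61 ± 0.05), Ccl7 (1.83 ± 0.05) and Ccl2 (1.27 ± 0.04) were highest with LPS relative to LTA. Ccl5 (0.44 ± 0.04), Ccl4 (0.37 ± 0.04), Ccl6 (0.21 ± 0.04) and Ccl9 (0.12 ± 0.04) differed less, and Ccl9 lost its call on total counts (0.02) and without any 1 of 5 libraries (0.09 to 0.12). Ccl17 (-1.52 ± 0.05), Ccl22 (-0.40 ± 0.05) and Ccl3 (-0.14 ± 0.04) were lower with LPS than with LTA, and Ccl3 lost its call without WT LPS replicate 1 (-0.10, adjusted p = 0.085). At 2 h in WT, 9 genes were higher with LPS and 0 with LTA, where 1.20% of all genes were called, 1.10% higher with LPS and 0.0992% with LTA. Ccl17 (2.53, 95% interval 1.51 to 3.55, from 10 to 13 counts against 1 or 2 per library) and Ccl22 (1.45 ± 0.27) were then higher with LPS, the reverse of their order at 6 h.

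In KO cells the differences between LPS and LTA at 6 h were at most 0.71 in size. Of the 10 genes, 7 were higher with LPS and 0 with LTA (2.66% of all genes called, 1.34% and 1.32%), and the sizes ran from 0.18 ± 0.04 for Ccl4 to 0.71 ± 0.14 for Ccl17. Ccl4 lost its call without LPS replicate 2 (0.15, adjusted p = 0.11) or LTA replicate 2 (0.17, 0.064). At 2 h, 5 were higher with LPS and 0 with LTA (1.40% of all genes, 1.14% and 0.258%), led by Ccl22 (1.39 ± 0.25) and Ccl5 (0.70 ± 0.05). Tested as the difference between genotypes, the preference for LPS at 6 h was smaller in KO for 5 genes and larger for 2 (22.7% of all genes called, 13.5% smaller and 9.14% larger). It was smaller for Ccl12 (-2.37 ± 0.10), Ccl7 (-1.54 ± 0.07) and Ccl2 (-1.0 ± 0.06), and less so for Ccl4 (-0.18 ± 0.06) and Ccl5 (-0.17 ± 0.06), which both lost the call on total counts (-0.10 and -0.09) and without any 1 of 7 or 8 of the 12 libraries. It was larger for Ccl17 (2.23 ± 0.15) and Ccl22 (1.09 ± 0.11), which were higher with LTA in WT and higher with LPS in KO. On total counts Ccl3 (0.14, adjusted p = 0.027) and Ccl9 (0.21, 0.0012) were also called larger, so that 3 were smaller and 4 larger. At 2 h it was smaller in KO for 5 genes, Ccl2, Ccl3, Ccl4, Ccl5 and Ccl7, by -0.31 to -0.62, and larger for 0, where 0.126% of all genes were called, 0.119% smaller and 0.00661% larger. Among these Ccl3 (-0.31 ± 0.06) lost its call without WT LPS replicate 3 (-0.28, 0.06).

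**Figure D5:**
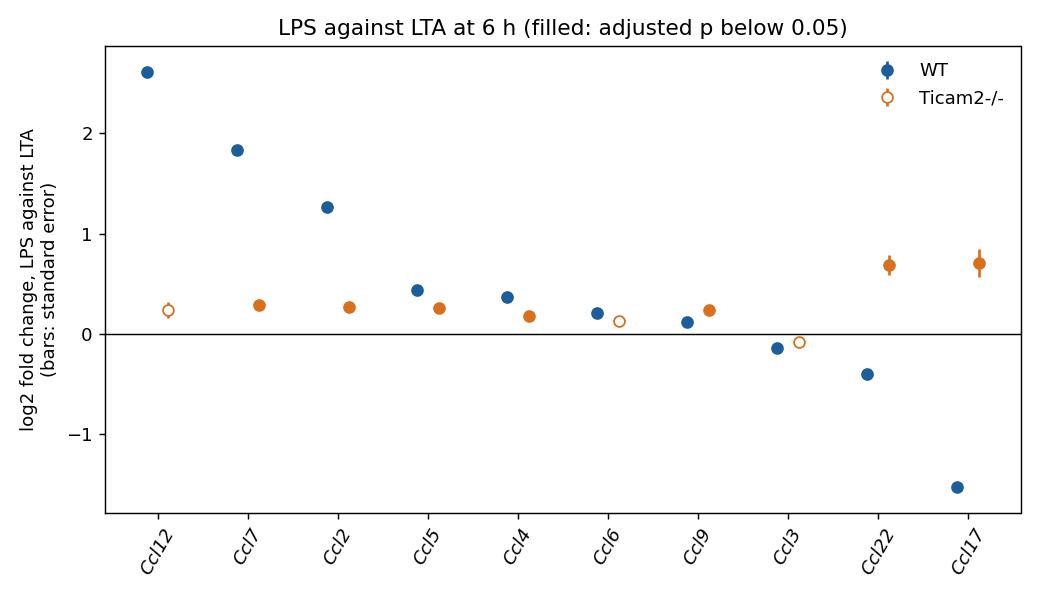
Log2 fold change of LPS against LTA at 6 h in WT (blue) and Ticam2-/- (orange), with standard errors, genes ordered by the WT value; filled points have an adjusted p under 0.05, and values above 0 are higher with LPS. WT values run from 2.61 (Ccl12) to -1.52 (Ccl17), whereas KO values stay between -0.08 and 0.71, with Ccl17 and Ccl22 on the LPS side.

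Pearson correlations of log2 CPM over the 18 untreated and 6 h libraries describe how the 10 genes moved together; the libraries share 6 groups, so these values mostly restate group means. Ccl2 and Ccl7 had r = 1.00, Ccl17 and Ccl22 0.99, and Ccl4 and Ccl9 0.99. The lowest value was 0.63, between Ccl5 and Ccl6, and Ccl9 and its neighbour Ccl6 had 0.80. The tested genes outside the 10 with the highest r, over the same 18 libraries, were Ifngr2, Zfp36 and Slc11a2 (0.996 each) for Ccl2, Zfp36, Ifngr2 and Tnip3 (0.997 to 0.998) for Ccl7, and Sbno2, Tnfrsf1a and Rgl1 (0.994 to 0.995) for Ccl12. For Ccl3 they were Tnip1, Mmp12 and Eif4g2 (0.997 to 0.998), for Ccl4 Bcl2a1b, Pik3r6 and Mapkapk2 (0.996 to 0.997), and for Ccl5 Rnaset2b, Sh3bgrl2 and Cdkn1a (0.997 each). For Ccl9 they were Stk40, Gpr85 and Irak2 (0.997 to 0.998), for Ccl17 Dld, Tspan3 and Eci2 (0.995 to 0.996), and for Ccl22 Srp54c, Srp54b and Ttc39c (0.995 to 0.996), of which Srp54b and Srp54c are near-identical copies. For Ccl6 the closest were Fabp4, Mcl1 and Slc7a5 (0.923 to 0.924).

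Of 11 further CC chemokine genes looked for, 6 were in the table and 3 passed the filter. Of these 3, 2 were lower in KO with LPS for 6 h and 1 with LTA, and 0 were higher. Over all genes tested, 30.6% were lower and 32.7% higher with LPS, and 28.0% and 30.5% with LTA. Ccl8, another gene of the Ccl2 cluster, held 41 to 51 counts per WT library with LPS for 6 h, 3 to 6 in untreated WT, 2 to 8 in WT with LTA and 2 to 5 in KO with LPS. Its changes were 4.07 ± 0.33 in the WT response to LPS (adjusted p = 5.7e-16) and -4.15 ± 0.33 in KO against WT (8.5e-16), next to -4.52 ± 0.06 for Ccl12. Among receptor genes, with LPS for 6 h Ccr2 was higher in KO (1.21 ± 0.14), and Ccr1 (-1.92 ± 0.10) and Ccr3 (-1.08 ± 0.17) were lower. Ccr2, the receptor of Ccl2, Ccl7 and Ccl12, fell in WT cells while these ligands rose, by -3.13 ± 0.11 with LPS and -4.87 ± 0.14 with LTA. These 3 receptors were lower in untreated KO cells than in untreated WT cells, from -0.26 ± 0.07 (Ccr2) to -1.44 ± 0.12 (Ccr1).

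Of 17 transcription factor genes known at promoters of CC chemokines, 4 were higher and 13 lower in KO with LPS for 6 h, where 63.3% of all genes were called (32.7% higher and 30.6% lower), and 4 and 12 with LTA, where 58.5% were (30.5% and 28.0%). With LPS those with the smallest p included Irf7 (-3.21 ± 0.05), which amplifies type I interferon, Stat2 (-3.08 ± 0.06), which transmits its signal, and Nfkb2 (-2.07 ± 0.04), an NF-kB subunit. With LPS for 2 h, 7 of the 17 were higher in KO and 8 lower, with a median of -0.09 beside 0.01 for all genes (16.4% of all genes called, 9.11% higher and 7.24% lower). The 4 with the smallest p were Nfkb1 (1.04 ± 0.06), Nfkb2 (0.99 ± 0.07) and Cebpb (0.68 ± 0.05), all higher in KO, and Jun (-1.59 ± 0.10), a subunit of AP-1, which was lower. Of 11 genes for proteins that hold, cut or take up chemokines, 2 were higher and 8 lower in KO with LPS for 6 h, beside the same 63.3% of all genes called. The 4 with the smallest p were Sdc4 (-2.32 ± 0.04), a heparan sulfate carrier, Ext1 (-2.79 ± 0.05), which builds that chain, Mmp14 (-1.96 ± 0.04), a membrane protease, and Mmp9 (2.53 ± 0.15), a secreted protease that was higher in KO. With LPS for 6 h the median change was -0.82 for the transcription factor list and -0.70 for this list, beside 0.01 for all genes.

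The 9 macrophage markers (among them Csf1r, Adgre1 and Cd68) were present in every group, with a sum of 19100 to 36000 CPM of the library total. The 8 dendritic cell markers, which bear on Ccl17 and Ccl22, summed to 0.749 to 5.08 CPM of the library total in all libraries. In WT their sum was 1.97 to 2.86 untreated, and at 6 h 1.10 to 2.42 with LPS and 1.25 to 2.27 with LTA. Only 2 of the 8 passed the filter on low counts, and on this scale the median gene fell in WT at 6 h. The fibroblast, neutrophil and B cell lists moved with the responses. The 9 fibroblast and stroma markers summed to 30.0 to 30.5 CPM in untreated WT, 66.8 to 75.3 with LPS and 102 to 106 with LTA for 6 h in WT, and 30.9 to 37.1 in KO at 6 h. Of the 6 tested, 4 were higher with LPS and 3 with LTA in WT at 6 h, beside 36.6% and 35.4% of all genes, and 0 were lower. In KO against WT at 6 h, 2 of the 6 were lower with LPS and 4 with LTA, beside 30.6% and 28.0% of all genes, and 0 were higher. Pdgfrb changed by 6.43 ± 0.16 with LPS and 7.30 ± 0.14 with LTA in WT at 6 h. Col1a1 changed by 0.65 ± 0.35 and 0.55 ± 0.35, which were not called. In the 2 h libraries the fibroblast sum was 62.1 to 129, with Lum at 0. Of the 8 neutrophil and granulocyte progenitor markers 7 were in the table, and they summed to 9.59 to 12.9 CPM in untreated WT, 20.4 to 25.5 in WT at 6 h, 9.23 to 12.1 in untreated KO and 12 to 14.3 in KO at 6 h. Of the 5 tested, 3 were lower in KO with LPS for 6 h and 4 with LTA, beside 30.6% and 28.0% of all genes. At 2 h they summed to 11.2 to 24.7 CPM, with Ly6g and Elane at 0. The 6 B cell markers moved the other way, from 9.36 to 10.1 CPM in untreated WT to 1.75 to 2.82 in WT at 6 h, and from 15.5 to 18.7 in untreated KO to 3.94 to 5.62 in KO at 6 h. At 2 h the B cell sum was 7.05 to 11.7 in WT and 1.00 to 5.99 in KO, with Pax5 at 0. T and NK cell markers (7 of 8 in the table) summed to at most 1.00 CPM in any library, mast cell and basophil markers (3 of 5) to at most 2.26, and the 4 liver markers to 20.8 to 29.3 in the untreated and 6 h libraries and 41.1 to 85.7 at 2 h. Red cell and platelet markers summed to 4510 to 6280 CPM in the untreated and 6 h libraries and 211 to 537 at 2 h. The part of these other cell types in the chemokine results was not tested.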

How the data were processed

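RNA-seq libraries of bone marrow-derived macrophages were analysed from 1 gene table. Its values are estimated counts per gene that the authors deposited, 25.2% of those above 0 not whole, and they were rounded to whole counts here. The submitters' processing notes name STAR 2.7.11 and fastp 0.24.0, then Subread 2.1.1, featureCounts and SAMtools 1.22.1, and the build GRCm38/mm10. Roles, annotation release, strandedness and RNA selection were not given in the sources used here. Among 32361 rows, 26314 had a symbol in GENCODE M21, and the rest held 1.31 to 3.87% of counts. Genes were filtered with filterByExpr (minimum count 10, total 15), scaled by TMM and tested with edgeR 4.0.16's robust quasi-likelihood test in R 4.3.3, with 1 coefficient per group over 30 libraries (20 residual degrees of freedom), 25 contrasts and Benjamini-Hochberg adjustment over 15119 genes within each contrast. SE is the log2 fold change divided by the square root of F. This SE can be too small where a group holds few counts, as for Ccl17. The spread is between the 3 libraries of a group. With 3 animals per genotype in all, animals recur across conditions, yet the fit treats the 30 libraries as independent. Its standard errors and p-values therefore do not take account of cells shared between conditions. A limit of 3 counts, which a count of 0 allows, equals 1.13 to 2.25 CPM at 2 h and 0.222 to 0.282 CPM elsewhere, for counting error only. The test was tried on simulated counts. Alternatives were RLE scaling, total counts, DESeq2 1.42.0, no filter, separate fits per library set, a replicate block and leaving out each library.

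All 10 members are named in the text. For the other CC chemokine, transcription factor and chemokine-handling lists, call counts are given in the contrasts described, with values for up to 4 genes with the smallest p, and for marker lists the summed CPM of the library total. Some genes of these lists are not reported here, and Ccl8, Pdgfrb and Col1a1 were singled out after their values were seen. For likeness, the 3 genes with the highest Pearson r are named. The members and lists were chosen with earlier results of these data known. Cell type marker lists cover macrophages, dendritic cells, neutrophils, fibroblasts, T and NK cells, B cells, mast cells, red cells and platelets, and liver.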

Additional observations from a re-analysis of the deposited data

Results flagged for a closer look

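The results listed here are those in which the 2 genotypes differed by a test of the difference itself, all as log2 differences from edgeR's quasi-likelihood test with 3 libraries per group and a Benjamini-Hochberg adjusted p under 0.05 over all genes. With LPS for 6 h the KO response minus the WT response was -1.32 for Ccl2, -1.95 for Ccl3, -2.57 for Ccl4, -4.68 for Ccl5, -2.24 for Ccl7, -0.73 for Ccl9, -3.55 for Ccl12, -2.65 for Ccl17 and -2.75 for Ccl22. With LTA for 6 h it was -0.32 for Ccl2, -2.01 for Ccl3, -2.39 for Ccl4, -4.51 for Ccl5, -0.70 for Ccl7, -0.84 for Ccl9, -1.18 for Ccl12, -4.88 for Ccl17 and -3.84 for Ccl22, where Ccl2 is the one that turned to 0.09 on total counts. With LPS for 2 h it was 0.79 for Ccl3, -0.21 for Ccl4, 0.33 for Ccl6, 0.41 for Ccl7, 0.86 for Ccl9, 0.64 for Ccl12 and 0.81 for Ccl22. With LTA for 2 h it was 0.47 for Ccl2, 1.10 for Ccl3, 0.39 for Ccl4, 0.43 for Ccl5, 0.38 for Ccl6, 1.03 for Ccl7, 0.82 for Ccl9 and 1.36 for Ccl12. The Ccl22 call with LPS for 2 h was lost with RLE factors (0.79, adjusted p = 0.055), total counts (0.70, 0.086) and no filter (0.80, 0.085). A replicate block also lost it (0.82, 0.056). That of Ccl12 was lost on total counts (0.53, 0.091) and with no filter (0.63, 0.065).

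The preference for LPS over LTA at 2 h, KO minus WT, was -0.47 for Ccl2, -0.31 for Ccl3, -0.60 for Ccl4, -0.41 for Ccl5 and -0.62 for Ccl7. At 6 h it was -1.0 for Ccl2, -0.18 for Ccl4, -0.17 for Ccl5, -1.54 for Ccl7 and -2.37 for Ccl12, and 2.23 for Ccl17 and 1.09 for Ccl22.

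The KO-to-WT change at 6 h minus that at 2 h, a contrast chosen after the data were seen, was with LPS -1.32 for Ccl2, -2.74 for Ccl3, -2.37 for Ccl4, -4.71 for Ccl5, -0.28 for Ccl6, -2.65 for Ccl7, -1.58 for Ccl9, -4.18 for Ccl12, -2.80 for Ccl17 and -3.56 for Ccl22. With LTA it was -0.79 for Ccl2, -3.11 for Ccl3, -2.78 for Ccl4, -4.94 for Ccl5, -0.25 for Ccl6, -1.74 for Ccl7, -1.67 for Ccl9, -2.54 for Ccl12, -6.50 for Ccl17 and -4.71 for Ccl22. The sign for Ccl6 turned with both ligands on total counts.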

How the results depend on the processing

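In each of the 25 contrasts the number of the 10 genes called stayed within 1.5 times its value under every alternative run, each left-out library included. Of 250 log2 changes of single genes, 248 kept direction and side of the threshold with RLE factors, 243 with no filter and 231 with total counts, and 245 of 248 did so with DESeq2. Fits of the untreated and 6 h libraries alone kept 119 of 120, and of the 2 h libraries alone 45 of 45, where Ccl17 could not be tested. Total counts reversed 6 changes: Ccl6 in the WT response at 6 h with LPS (-0.40) and LTA (-0.51), in KO against WT with LPS for 6 h (0.46) and in the 6 h minus 2 h contrast with LPS (0.34) and LTA (0.26), and Ccl2 in the KO minus WT response to LTA at 6 h (0.09). Over all genes, total counts called 9268 higher and 2191 lower in KO with LPS for 6 h (TMM: 4951 and 4625), 8906 and 1836 with LTA (4604 and 4237), and 2450 and 9630 in the WT response to LPS at 6 h (5534 and 5452). The labels do not say that a replicate number marks the same animal across conditions, and same-numbered libraries did not deviate together. In 11 of 30 libraries the own number correlated best. A replicate block was the number within a genotype. For KO against WT within a condition it was instead the number shared by both genotypes, which pairs different animals. This block kept 248 of 250 changes. It gained Ccl6 in untreated KO against WT (-0.11, adjusted p = 0.037) and lost Ccl22 in the KO minus WT response to LPS at 2 h (0.82, 0.056). At 2 h, depth limits Ccl12, Ccl17 and Ccl22.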

Other observations

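Among the WT libraries with LPS for 6 h, replicate 1 was the lowest of the 3 for 10 of 10 CC chemokines by TMM-scaled CPM and for 9 by CPM of total counts, and replicate 3 was the highest for 9. Among the KO libraries with LPS for 6 h, replicate 1 was the lowest for 9 by TMM-scaled CPM and for 7 by CPM of total counts. The cause was not tested.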
